A study of Mus musculus with 34 samples.

Results

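The SGK kinase family comprises 3 mouse genes, Sgk1, Sgk2 and Sgk3, taken by gene name from a count table of 55341 gene names in 34 RNA-seq libraries. The cells were glucocorticoid receptor (GR) knockout derivatives of the mouse mammary adenocarcinoma line 3617, each stably expressing one GFP-tagged mouse GR: wild type (WT) or one of the mutants Y551A, Y551A-Dim, D647V and D647V-tetra. The labels do not define Dim and tetra, so those names are used as given. Every line was grown with 10% serum and 5 µg/ml tetracycline, held for at least 24 h in charcoal/dextran-stripped serum, and then given 100 nM dexamethasone (Dex, a synthetic glucocorticoid) or ethanol vehicle (EtOH) for 2 h. Set 1 of the libraries held WT, Y551A and Y551A-Dim with 3 libraries for each line and treatment. Set 2 held its own WT with 2 libraries for each treatment, beside D647V and D647V-tetra at 3 per line and treatment. Each receptor form is 1 line, so the receptor form and any other property of a line cannot be told apart, and lines were compared only within a set.

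SGK kinases are serine/threonine kinases of the AGC group, close relatives of AKT. They are activated downstream of PI3K through phosphorylation by PDK1 and mTORC2, and they act on ion channels and transporters, on FOXO transcription factors and on NDRG1. SGK1 was identified as a serum- and glucocorticoid-inducible kinase, and its messenger RNA and protein are both short-lived. SGK3 carries a PX domain that places it on endosomes, and SGK2 is best known from liver, kidney and pancreas.

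Library totals were 44998213 to 70124595 counted reads in set 1 and 60277930 to 79776573 in set 2. The receptor gene Nr3c1 was counted at 234.4 to 380 CPM (counts scaled to library size) in all 34 libraries. Relative to WT in EtOH it was higher in Y551A (log2 difference 0.30) and Y551A-Dim (0.15) and lower in D647V (-0.24) and D647V-tetra (-0.37), and all 4 differences were called at an adjusted p below 0.05. Gene counts do not separate the tagged transgene from any remaining endogenous transcript. Of 12 mammary epithelial markers, 3 (Esr1, Gata3 and Krt14) had a median of at least 1 CPM. The 12 summed to between 12.9 and 34.45 CPM in a library, and Epcam had 0 counts in every library. Of 7 fibroblast markers, 5 reached that median and the 7 summed to 1833 to 2972 CPM, mostly Col1a2. Col1a1 had a median of 1.802 CPM, and Dcn and Lum stayed at or below 0.1433 CPM. Of 6 immune markers 1 (Lyz2) reached that median, and of 4 endothelial markers 1 (Cdh5). Lyz2 was at 3.562 CPM or more in every library and Cdh5 at 1.962 CPM or more. Esr1, Gata3 and Krt14 were thus present in every library, at 2.459 CPM or more, while the epithelial adhesion and keratin genes Cdh1, Krt8 and Krt18 stayed at or below 0.7966 CPM.

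Sgk1 (ENSMUSG00000019970.15) lies on the plus strand of mm10 chromosome 10, from 21882184 to 21999903, with 18 merged exons of 4903 bases in all and 13 annotated transcripts, 9 of them protein-coding. RefSeq start windows (GRCm38.p6, 250 bases before and 50 after a transcript start) covered 6 Sgk1 starts. The pair shown here carry the letters of a GR motif and of a TATA box upstream of 2 protein-coding starts. The first, chr10:21993640-21993939 on the plus strand, surrounds the start of Sgk1-202, and its capitals mark an exact match to the palindromic GR binding motif.
Sgk1-202 window: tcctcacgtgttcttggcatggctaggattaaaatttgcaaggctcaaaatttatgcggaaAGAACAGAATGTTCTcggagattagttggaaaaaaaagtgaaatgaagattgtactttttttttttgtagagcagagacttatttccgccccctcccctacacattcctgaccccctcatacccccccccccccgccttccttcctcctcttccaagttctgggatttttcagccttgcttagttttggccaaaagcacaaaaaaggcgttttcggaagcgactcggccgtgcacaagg
The second, chr10:21994416-21994715 on the plus strand, surrounds the start of Sgk1-201, and its capitals mark TATA-box letters that begin 11 bases before that start.
Sgk1-201 window: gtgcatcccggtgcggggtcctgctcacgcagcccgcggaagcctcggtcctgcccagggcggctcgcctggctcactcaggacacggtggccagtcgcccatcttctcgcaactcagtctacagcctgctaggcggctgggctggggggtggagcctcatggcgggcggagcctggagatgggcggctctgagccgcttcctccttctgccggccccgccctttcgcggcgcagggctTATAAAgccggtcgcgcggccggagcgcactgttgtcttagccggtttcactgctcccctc

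The palindrome searched was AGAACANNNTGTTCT, which reads the same on both strands. The match, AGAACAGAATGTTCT at chr10:21993701-21993715, ends 175 bases before the Sgk1-202 start and 951 bases before the Sgk1-201 start. Among all 32851 start windows in the table, 3 held this palindrome (0.00913%). A relaxed form, GNACANNNTGTNC, occurred in 156 windows (0.475%), those 3 included, and in no other Sgk1 window. TATAAA on either strand occurred in 13.6% of all windows, and in 2 of the 6 Sgk1 windows. Of 10147 genes that were tested in set 1 and had a window, 1 held the full palindrome, and it was Sgk1. No full or relaxed match lay in the windows of the other GR-responsive genes Tsc22d3, Sdc4, Tsku, Per1 and Fkbp5, which says only that these letters are not in those windows. The counts are summed over all transcripts of a gene, so they do not show which start was used.

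Dex raised Sgk1 in all 6 lines (WT counted once in each set), from 5.34-fold in WT of set 1 and 6.27-fold in WT of set 2 down to 1.56-fold in Y551A-Dim and 1.78-fold in D647V-tetra. In WT of set 1 the 3 EtOH libraries had 145.9, 149.1 and 149.3 CPM of Sgk1 and the 3 Dex libraries 790.1, 788.1 and 793.1 CPM. In Y551A the EtOH libraries had 177.2, 178.8 and 180.1 CPM and the Dex libraries 651.8, 672.4 and 670.7 CPM. In Y551A-Dim the EtOH libraries had 125.1, 136.7 and 125.4 CPM and the Dex libraries 206.3, 192.2 and 206.0 CPM. Every Dex library of a line lay above every EtOH library of that line, and the Dex libraries of the 3 lines formed 3 separate levels.

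Set 2 showed the same layout with its own WT. The WT EtOH libraries had 128.4 and 138.3 CPM of Sgk1 and the Dex libraries 850.8 and 821.1 CPM. In D647V the EtOH libraries had 116.9, 122.1 and 121.4 CPM and the Dex libraries 411.5, 418.5 and 394.5 CPM. In D647V-tetra the EtOH libraries had 107.3, 104.4 and 110.1 CPM and the Dex libraries 191.5, 189.7 and 193.4 CPM. The highest Sgk1 level in D647V-tetra with Dex was below the lowest level in D647V with Dex, and that was below both WT libraries with Dex. Ordered by mean CPM, the 6 groups of each set did not overlap with their neighbours in either set.

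**Figure D1:**
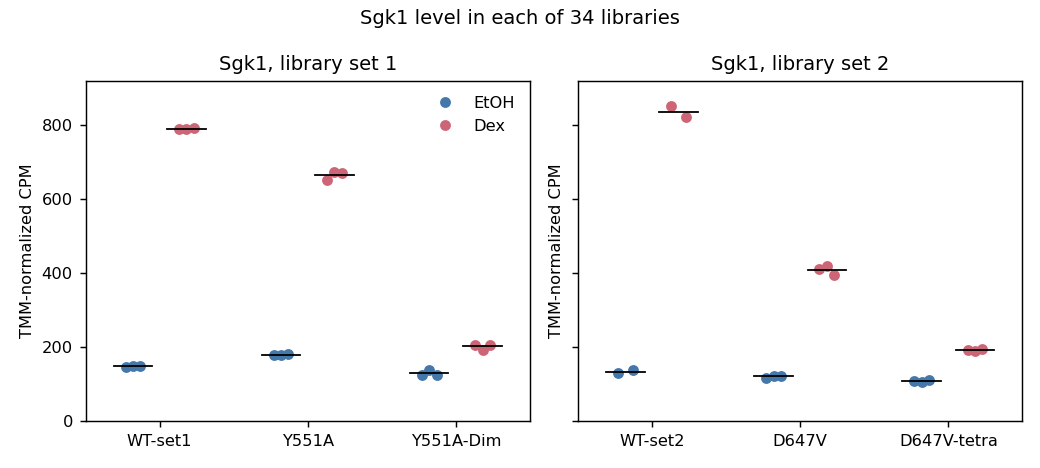
Sgk1 level (TMM-normalized CPM, linear axis from 0) in each of 34 libraries, by line and treatment, set 1 on the left and set 2 on the right; points are libraries and bars are group means. Dex libraries of WT lie between 788.1 and 793.1 CPM in set 1 and at 821.1 and 850.8 CPM in set 2, while those of Y551A-Dim and D647V-tetra stay at or below 206.3 CPM.

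On the log2 scale the Dex response of Sgk1 was 2.42 ± 0.038 (SE, 95% interval 2.34 to 2.50) in WT of set 1, where Sgk1 was the 1 member called among 3 and 3.4% of 16140 genes were called. It was 1.90 ± 0.038 in Y551A, with 1.84% of all genes called, and 0.64 ± 0.037 in Y551A-Dim, with 1.09% called (176 genes, and 87 to 674 without 1 library, highest without its Dex replicate 3). In set 2 it was 2.65 ± 0.055 in WT (1.72% of 17535 genes called), 1.76 ± 0.044 in D647V (0.941% called) and 0.84 ± 0.043 in D647V-tetra (19.2% called). The count in D647V-tetra, 3367 genes, was between 1344 and 1917 when EtOH replicate 1 or 3 or Dex replicate 1 or 3 of that line was left out. Adjusted p-values by edgeR's quasi-likelihood test ran from 1.57e-25 in WT of set 1 to 5.83e-10 in D647V-tetra. By p-value Sgk1 was the second gene of the whole table in 5 of the 6 lines and the 21st in D647V-tetra. By size of change it was lower in the order, 29th of 323 genes that rose in WT of set 1 and 497th of 1984 that rose in D647V-tetra. Fitted over the 10 WT libraries of both sets the response was 2.54 ± 0.031, with 5.1% of 16540 genes called. The WT response of set 2 exceeded that of set 1 by 0.22 (95% interval 0.10 to 0.34), with an adjusted p of 0.431 and 0.0181% of genes called. Without a low-count filter that difference had an adjusted p of 0.0488.

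**Figure D2:**
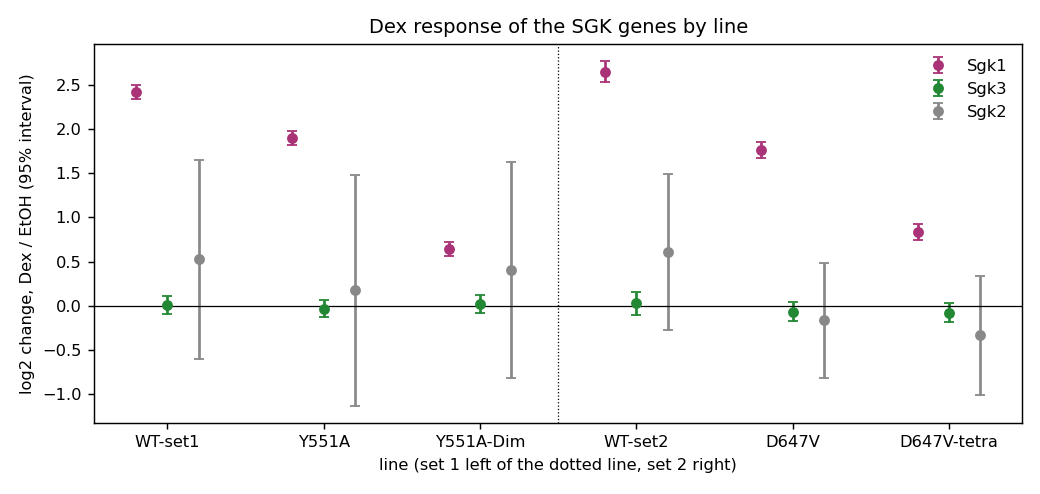
log2 change with Dex over EtOH for Sgk1, Sgk3 and Sgk2 in each line, with 95% intervals from edgeR's quasi-likelihood fit; set 1 is left of the dotted line and set 2 right of it. Sgk1 lies above 0 in all 6 lines, from 0.64 to 2.65, Sgk3 lies within 0.08 of 0, and the intervals of Sgk2 are wide and include 0.

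The Dex response of Sgk1 was smaller in each mutant than in the WT of its set. The difference was -0.52 ± 0.052 in Y551A (adjusted p 3.92e-06), where 0.18% of all genes differed. It was -1.77 ± 0.052 in Y551A-Dim (adjusted p 1.91e-18), where 1.47% differed. Y551A-Dim responded less than Y551A by 1.25 ± 0.052 on the log2 scale (adjusted p 9.07e-15), with 0.558% of genes differing. In all 3 of these comparisons Sgk1 had the lowest p-value of the 16140 genes.

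In set 2 the difference from WT was -0.88 ± 0.068 in D647V (adjusted p 5.93e-06), where 0.188% of genes differed, and -1.81 ± 0.068 in D647V-tetra (adjusted p 3.72e-11), where 4.41% differed. D647V-tetra responded less than D647V by 0.93 ± 0.061 on the log2 scale (adjusted p 2.6e-07), with 0.873% of genes differing. The number of genes that differed depended on single libraries, between 75 and 1643 for D647V-tetra against WT (774 with all libraries, and 75 without WT EtOH replicate 2) and between 49 and 271 for D647V-tetra against D647V (153 with all libraries). With all libraries, in the comparison of D647V-tetra with D647V, 136 genes had a larger response in D647V-tetra and 17 a smaller one, and Sgk1 was among the 17. By p-value Sgk1 was the first or second gene in each of the 3 comparisons.

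Expressed as added transcript, Dex raised Sgk1 by 642.3 CPM in WT of set 1, by 486.3 CPM in Y551A and by 72.45 CPM in Y551A-Dim. The mutants' gains were 75.7% and 11.3% of the WT gain. The gain of Sgk1 was the largest of all 16140 genes in WT and in Y551A, and the 18th largest in Y551A-Dim. In set 2 the gain was 702.6 CPM in WT, 288 CPM in D647V (41% of WT) and 84.23 CPM in D647V-tetra (12% of WT). These gains ranked 4th, 7th and 71st among 17535 genes, an order of mean differences without a test. The largest gains were of Gm42418, Rn7sk and mt-Rnr2 in WT, and of mt-Rnr2, Neat1 and mt-Co1 in D647V. In D647V-tetra they were of Gm26917, mt-Rnr2 and Malat1. A gain in CPM is larger for abundant and long genes, so it orders genes by reads and not by molecules.

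In EtOH, Sgk1 also differed between lines. In set 1 it was higher in Y551A than in WT by 0.27 ± 0.037 (log2, adjusted p 1.1e-06) and lower in Y551A-Dim by 0.20 ± 0.037 (adjusted p 0.000297). Sgk1 and Sgk3 were both called in these 2 comparisons, where 42.5% and 23.3% of all genes were called, so a call there is no mark of the family. Y551A-Dim was below Y551A by 0.47 ± 0.037 (adjusted p 3.26e-10), with 29% of genes called. In set 2 D647V-tetra was below WT by 0.31 ± 0.048 (adjusted p 0.000264), with 18.7% of genes called. D647V was at -0.15 relative to WT (95% interval -0.25 to -0.05, adjusted p 0.0692), with 7.36% called. The genes called against WT numbered 364 in place of 1290 in D647V without WT EtOH replicate 1, and 1498 in place of 3277 in D647V-tetra without WT EtOH replicate 2. D647V-tetra was at -0.16 relative to D647V (adjusted p 0.0384, 4.53% called), a call that was lost without each of 9 libraries in turn (3 D647V and 3 D647V-tetra EtOH libraries among them) and under 5 other settings.

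With Dex, Sgk1 in Y551A stood 0.25 below WT on the log2 scale, where 41.1% of genes were called. Y551A thus had the highest Sgk1 of set 1 in EtOH and a lower level than WT in Dex. With Dex, Sgk1 stood 1.97 below WT in Y551A-Dim (26% of genes called), 1.03 below in D647V (9.42% called) and 2.13 below in D647V-tetra (12.4% called). Without WT Dex replicate 2 the genes called with Dex fell from 1651 to 441 in D647V and from 2175 to 635 in D647V-tetra. The difference with Dex was also called between Y551A-Dim and Y551A, at -1.72 (25.5% called), and between D647V-tetra and D647V, at -1.09 (1.87% called). The Nr3c1 level moved with line as well, up in both set 1 mutants and down in both set 2 mutants. Its log2 differences from WT with Dex were 0.49 in Y551A, 0.41 in Y551A-Dim, -0.20 in D647V and -0.51 in D647V-tetra, all called. Nr3c1 itself responded to Dex by 0.13 in Y551A, 0.20 in Y551A-Dim and -0.13 in D647V-tetra (all called), and was not called in the other lines. The part of Nr3c1 in the Sgk1 differences was not tested.

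The genes whose pattern over the 34 libraries was closest to that of Sgk1 were Zfp36l2, Ccn2, Tsc22d3, Sdc4 and Tsku. Likeness was Pearson's r of log2 CPM after subtracting each set's mean, over 10180 genes, and it is a description, since the libraries share lines and treatment. The r was 0.98 for Zfp36l2, an RNA-binding protein that promotes messenger decay, and 0.961 both for Ccn2, a matricellular protein, and for Tsc22d3, which encodes the glucocorticoid-induced leucine zipper GILZ. It was 0.951 for the proteoglycan Sdc4 and 0.948 for the secreted protein Tsku. Within either set alone all 5 ranked 19th or closer, and by Spearman's rho Tsku ranked 1st and Sdc4 96th. Ccn2 also lies on chromosome 10, with its start at 24595442.

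Within each set the 5 genes did not keep the same spacing to Sgk1. In WT of set 1 the log2 Dex response was 2.40 for Tsc22d3, against 2.42 for Sgk1, and in Y551A-Dim it was 0.72 against 0.64. In D647V-tetra Tsc22d3 responded by 1.51 and Tsku by 1.60, while Sgk1 responded by 0.84. From WT of set 2 to D647V-tetra the response of Ccn2 went from 4.975 to 2.293. That of Zfp36l2 went from 1.36 to 0.61 and that of Sdc4 from 1.13 to 0.35. Differences between genes were not tested. Per1, a clock gene bound by GR, responded by 3.09 in WT of set 2 and 2.74 in D647V-tetra, and the difference of -0.35 ± 0.217 was not called (adjusted p 0.313). Fkbp5, a GR co-chaperone gene, responded by 1.21 in WT and 0.87 in D647V-tetra, a called difference of -0.34 ± 0.082 (adjusted p 0.0272). That call was lost under 6 of 24 alternatives (adjusted p up to 0.194): a fit of the compared groups alone, and leaving out WT EtOH replicate 2, either WT Dex library, or Dex replicate 1 or 3 of D647V-tetra. Tsc22d3 responded less in D647V-tetra than in WT by 1.04 ± 0.084 (adjusted p 4.72e-06).

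**Figure D3:**
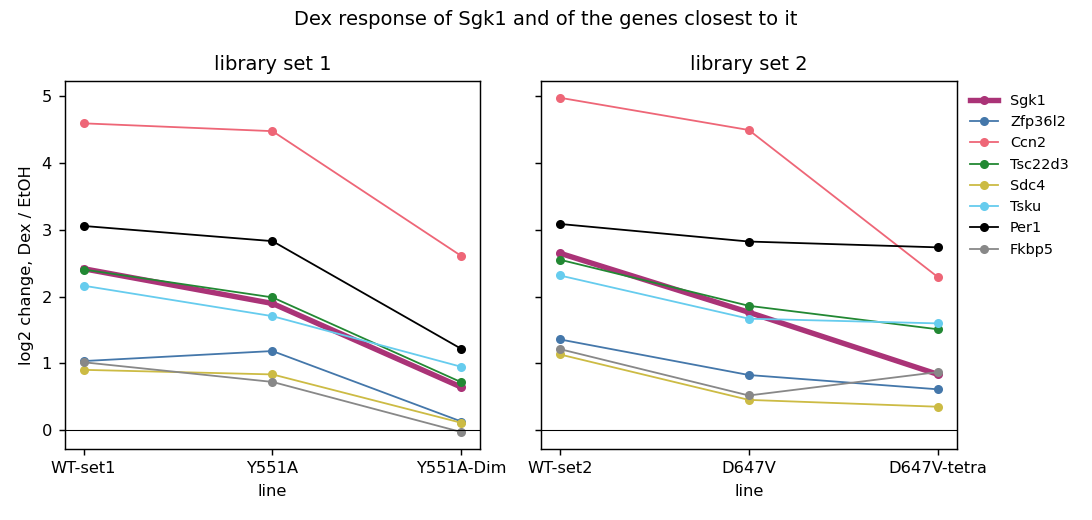
log2 change with Dex over EtOH in each line for Sgk1 (thick line), the 5 genes closest to it in pattern, and Per1 and Fkbp5; lines join the values of a gene across the 3 lines of a set. In set 2 Sgk1 goes from 2.65 in WT to 0.84 in D647V-tetra, Ccn2 from 4.975 to 2.293 and Per1 from 3.09 to 2.74.

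Sgk3 (ENSMUSG00000025915.14) lies on chromosome 1, from 9798107 to 9900845 on the plus strand, with 20 merged exons of 14311 bases. Its level showed no Dex response that passed the test in any line, but it was higher in all 4 mutant lines than in the WT of their set. Sgk3 in WT of set 1 had 27.63, 26.38 and 26.49 CPM in EtOH and 28.01, 26.91 and 26.13 CPM in Dex. In Y551A it had 41.48, 44.35 and 41.67 CPM in EtOH and 40.58, 42.33 and 41.95 CPM in Dex. In Y551A-Dim it had 37.35, 41.97 and 39.37 CPM in EtOH and 40.62, 41.2 and 38.83 CPM in Dex. All 6 WT libraries lay below all 12 mutant libraries, and within each line the treatments overlapped.

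In set 2 the gap was narrower. The WT mean of Sgk3 in EtOH was 35.51 CPM there and 26.83 CPM in set 1, levels scaled within each set and not tested against each other. WT had 35.57 and 35.46 CPM of Sgk3 in EtOH and 34.95 and 37.48 CPM in Dex. D647V had 44.12, 44.07 and 45.41 CPM in EtOH and 41.73, 44.16 and 41.68 CPM in Dex. D647V-tetra had 47.34, 43.05 and 44.05 CPM in EtOH and 41.22, 44.87 and 41.22 CPM in Dex. The 4 WT libraries again lay below all 12 mutant libraries, and the D647V and D647V-tetra libraries overlapped.

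**Figure D4:**
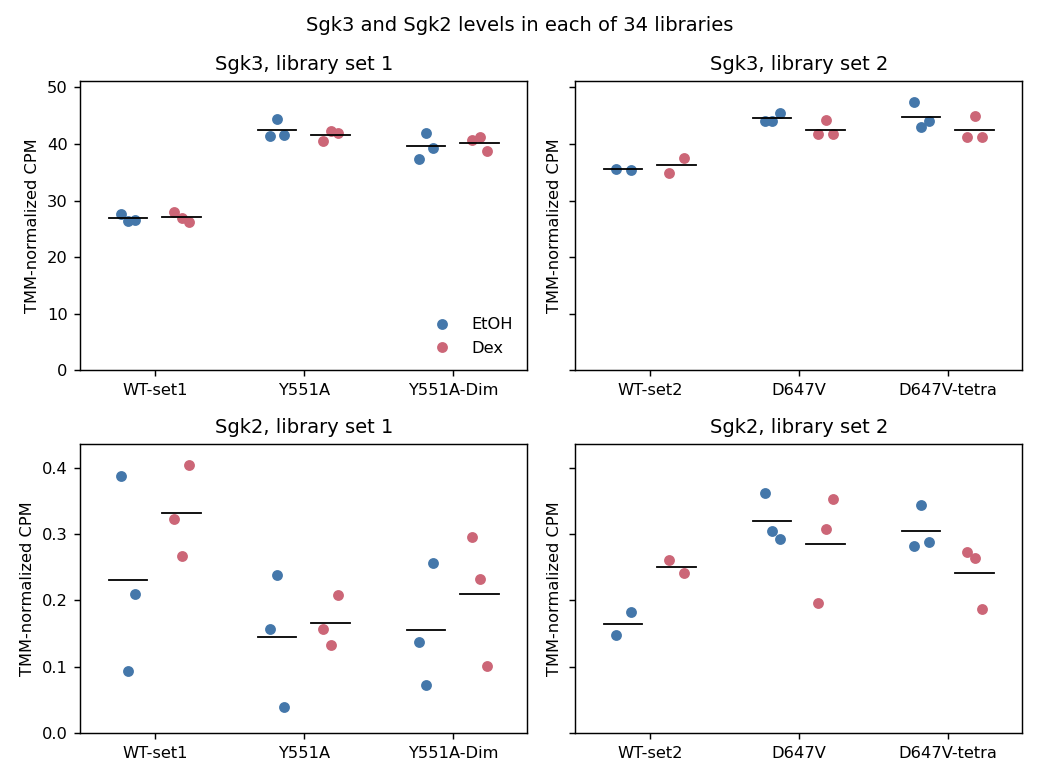
Sgk3 (top) and Sgk2 (bottom) levels in each of 34 libraries (TMM-normalized CPM, linear axes from 0), by line and treatment, set 1 left and set 2 right; points are libraries and bars are group means. Sgk3 separates WT from the mutants at either treatment, with WT at or below 28.01 CPM in set 1 and 37.48 CPM in set 2, and Sgk2 stays at or below 0.4042 CPM.

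The log2 Dex response of Sgk3 was 0.01 in WT of set 1 (95% interval -0.10 to 0.12), -0.03 in Y551A (-0.13 to 0.07) and 0.02 in Y551A-Dim (-0.08 to 0.12). In set 2 it was 0.03 in WT (-0.11 to 0.16), -0.07 in D647V (-0.17 to 0.04) and -0.08 in D647V-tetra (-0.19 to 0.03). The largest change these intervals allow is 0.19 in either direction. No difference of Sgk3 response between lines was called, with adjusted p from 0.421 to 0.977 over the 6 comparisons within sets.

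In EtOH Sgk3 exceeded WT by 0.66 ± 0.050 in Y551A (log2, adjusted p 3.22e-11) and by 0.56 ± 0.050 in Y551A-Dim (adjusted p 6.12e-09). In set 2 it exceeded WT by 0.33 ± 0.058 in D647V (adjusted p 0.00216) and by 0.34 ± 0.058 in D647V-tetra (adjusted p 0.000709). Of all genes, 42.5%, 23.3%, 7.36% and 18.7% were called in these comparisons. With Dex the differences of Sgk3 from WT were 0.62, 0.57, 0.23 and 0.23 in the same order. All were called, where 41.1%, 26%, 9.42% and 12.4% of all genes were called, but the set 2 pair rested on few libraries. The D647V difference with Dex had an adjusted p of 0.151 and 0.0579 without WT replicate 1 and 2, and 0.0704 without D647V replicate 2. The D647V-tetra difference with Dex had an adjusted p of 0.138 without WT replicate 1 and 0.0523 without D647V-tetra replicate 2. Between mutants of a set, Sgk3 in EtOH was at -0.10 in Y551A-Dim relative to Y551A (95% interval -0.20 to -0.003, adjusted p 0.12) and at 0.01 in D647V-tetra relative to D647V (-0.10 to 0.12).

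The genes closest to Sgk3 in pattern were Pign, Mfap3l, Atp6v1h, Mal and Ppp1r15b, with r from 0.96 to 0.947 over both sets. Within set 2 alone Mal ranked 431st and Mfap3l 165th, and the other 3 ranked 13th to 46th. Pign, an enzyme of GPI-anchor synthesis, Atp6v1h, a subunit of the vacuolar proton pump, and Ppp1r15b, a regulator of eIF2α dephosphorylation, lie on chromosome 1 like Sgk3. Among the 50 genes closest to Sgk3, 31 were on chromosome 1 (62%), against 587 of the 10180 genes ranked (5.77%). Among the 50 closest to Sgk1, 3 were on its chromosome 10, against 4.85% of those ranked. These counts by chromosome were made after the closest genes had been seen. Sgk1 and Sgk3 themselves had an r of -0.253.

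The chromosome 1 genes as a whole shared the direction of Sgk3 in EtOH. In Y551A the median log2 difference from WT was 0.17 over 678 genes of chromosome 1 and -0.05 over the 10374 genes elsewhere. In Y551A-Dim these medians were 0.18 and -0.05. In D647V they were 0.11 over 725 genes and 0.01 over 10541, and in D647V-tetra 0.11 and 0.01. Of the 20 chromosomes, chromosome 1 had the highest median in all 4 comparisons of a mutant with WT. Of its genes 53.7% were called higher in Y551A and 60.5% in Y551A-Dim, against 17.6% to 26% and 5.73% to 11.5% on the other chromosomes. In D647V and D647V-tetra 23.4% and 33.4% were called higher, against 4.31% to 7.81% and 9.22% to 15.8% on the others. Over all genes tested, low-count genes included, 18.9%, 10%, 4.58% and 9.35% were called higher in the same order of lines. Within 10 Mb of Sgk3 the median over 32 genes was 0.21 in Y551A and 0.25 in Y551A-Dim, and over 34 genes it was 0.17 in D647V and 0.19 in D647V-tetra. Sgk3's own difference was larger than these medians, with 54, 62, 63 and 102 chromosome 1 genes above it in the same order of lines. The part of this chromosome-wide difference in the Sgk3 difference was not tested. Around Sgk1 on chromosome 10 the median of 52 genes within 10 Mb lay between -0.02 and 0.01 in the same 4 comparisons.

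**Figure D5:**
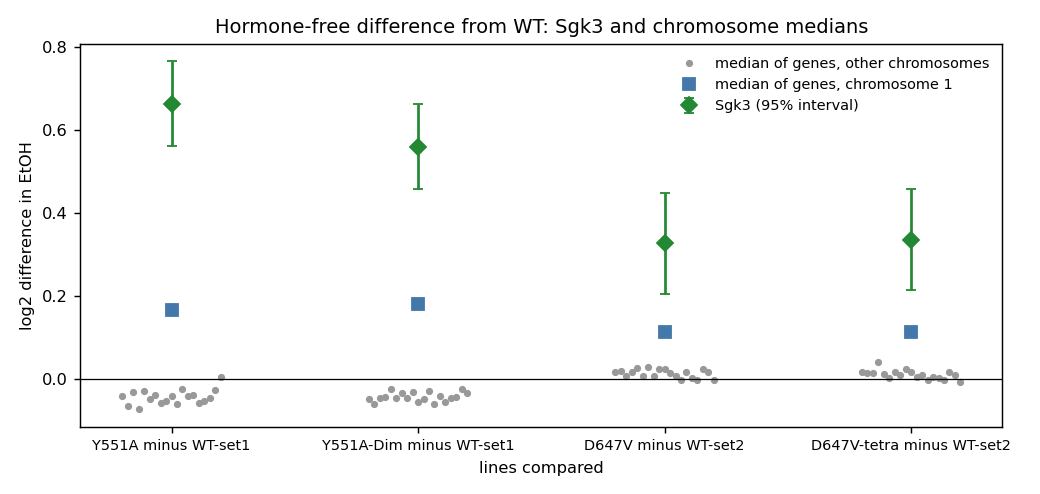
log2 difference from WT in EtOH for the 4 mutant lines; diamonds are Sgk3 with its 95% interval, squares the median over chromosome 1 genes, and small dots the medians of the other chromosomes. Chromosome 1 lies at 0.17, 0.18, 0.11 and 0.11, above every other chromosome, and Sgk3 lies higher still at 0.66, 0.56, 0.33 and 0.34.

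Sgk2 (ENSMUSG00000017868.16, chromosome 2, 162987330 to 163014127, plus strand, 14 merged exons of 3412 bases) was barely detected. It had 2 to 26 counted reads in a library, with group means from 0.14 CPM in Y551A with EtOH to 0.33 CPM in WT of set 1 with Dex. It passed the low-count filter in both sets and no comparison called it. The reads in WT of set 1 were 24, 6 and 11 in EtOH and 16, 12 and 20 in Dex, which overlap. Treatments also overlapped in Y551A, Y551A-Dim and D647V. They did not overlap in WT of set 2, with 10 and 13 reads in EtOH and 18 and 14 in Dex, or in D647V-tetra, with 18, 24 and 22 in EtOH and 19, 18 and 14 in Dex, as levels in CPM. The log2 response was 0.60 (95% interval -0.28 to 1.49) in the first and -0.34 (-1.01 to 0.34) in the second, opposite in sign and neither called. In WT of set 1 its log2 Dex response was 0.52, with a 95% interval from -0.60 to 1.65, a range that holds 0 as well as the response of Sgk1 in Y551A-Dim. In set 2 the EtOH difference from WT was 0.95 in D647V (95% interval 0.15 to 1.74, adjusted p 0.156) and 0.88 in D647V-tetra (0.08 to 1.68, adjusted p 0.118), with WT at 10 and 13 reads and the mutants at 18 to 26.

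Read per length, the family in these cells was mostly Sgk1 at every condition. On the length-scaled RPKM scale the ratio of Sgk1 to Sgk3 was 16.1 ± 0.618 (SD, n = 3) in WT of set 1 with EtOH and 85.5 ± 3.13 with Dex. In Y551A it went from 12.3 to 46.6 and in Y551A-Dim from 9.53 to 14.6. In set 2 it went from 11 to 67.5 in WT, from 7.88 to 28 in D647V and from 7 to 13.2 in D647V-tetra. Lower Sgk1 and higher Sgk3 both entered the lower ratios of the mutants with Dex. Sgk1 made up between 87.2% (D647V-tetra, EtOH) and 98.8% (WT of set 1, Dex) of the family's summed RPKM as group means, and Sgk2 at most 0.413% in any library. These ratios and shares depend on the lengths used, the merged exons of all annotated transcripts (4903 bases for Sgk1, 14311 for Sgk3). Without length scaling, WT of set 1 with EtOH had means of 148.1 CPM for Sgk1 and 26.83 for Sgk3.

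The known partners of SGK kinases were mostly level after 2 h of Dex. Of 62 listed genes (upstream activators, turnover factors, substrates and effectors, channels and transporters, and related AGC kinases), 45 were tested in set 1 and 47 in set 2, and 15 were tested in neither. Most of those 15 were channels and transporters such as Scnn1b, Kcnj1 and Slc12a3. The GR-responsive gene Tsc22d3 is on the list and was called in all 6 lines, so every count below includes it. WT of set 1 had 3 listed genes that rose and 1 that fell, 8.89% of those tested against 3.4% of all genes. No listed gene fell in the other 5 lines. Their shares are likewise set beside all genes called in either direction. In Y551A 3 rose (6.67% against 1.84% of all genes) and in Y551A-Dim 2 rose, Tsc22d3 and Ndrg1 (4.44% against 1.09%). In WT of set 2 and in D647V 3 rose, 6.38% against 1.72% and 0.941% of all genes. In D647V-tetra 11 of 47 rose, 23.4% against 19.2% of all genes, so the share there was near that of all genes. Of all genes in that line 11.3% rose and 7.89% fell. The listed genes' median log2 response lay between -0.02 and 0.06 in the 6 lines, beside medians over all genes between -0.0127 and 0.0019.

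Among upstream activators, Pik3r1, the regulatory subunit of PI3K, rose by 0.54 ± 0.042 in WT of set 1, by 0.41 ± 0.055 in WT of set 2, by 0.33 ± 0.042 in Y551A and by 0.27 ± 0.045 in D647V (log2, all called). In Y551A-Dim its response was 0.12 (adjusted p 0.225) and in D647V-tetra 0.05 (adjusted p 0.485). The Pik3r1 response was smaller than in WT by 0.42 ± 0.059 in Y551A-Dim (adjusted p 4.41e-05) and by 0.36 ± 0.071 in D647V-tetra (adjusted p 0.0102), and both differences were called. The latter was not called without WT EtOH replicate 2 (adjusted p 0.0766) or WT Dex replicate 2 (0.073). The catalytic subunit gene Pik3cb fell by 0.26 ± 0.041 in WT of set 1 and was at -0.09 in WT of set 2 (adjusted p 0.747). For the activating kinases' genes Mtor, Rictor (an mTORC2 subunit) and Pdpk1 (PDK1), differences of response between lines were tested in D647V-tetra. They were not called against WT of set 2 (adjusted p 0.096, 0.0588 and 0.101), though each was with DESeq2. Against D647V they were not called either (0.207, 0.177 and 0.578). Within D647V-tetra itself these genes rose with Dex by 0.39, 0.23 and 0.12. The Pdpk1 call was lost under 16 of 24 alternatives (adjusted p up to 0.253), and that of Rictor without EtOH replicate 1 or 3 or Dex replicate 3 of D647V-tetra (up to 0.107).

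Among substrates and effectors, Tsc22d3 rose in all 6 lines, as given above. Foxo3, a transcription factor that SGK1 phosphorylates, rose by 0.48 in WT of set 1, 0.41 in WT of set 2, 0.23 in Y551A, 0.30 in D647V and 0.37 in D647V-tetra. In Y551A-Dim its response was 0.05 (adjusted p 0.767), and it was smaller than in WT by 0.43 ± 0.067 (adjusted p 0.000194). Ndrg1, the substrate whose phosphorylation is used to read SGK1 activity, rose by 0.50 ± 0.102 in Y551A-Dim and was at -0.09 in WT of set 1 (adjusted p 0.868). Its difference between these lines was 0.59 ± 0.144 (adjusted p 0.0303). The Ndrg1 response in Y551A-Dim was not called without EtOH replicate 1 (adjusted p 0.0642) or 3 (0.0629) of that line, or in a fit of its 2 groups alone (0.294). The difference from WT was lost under 10 of 26 alternatives, with adjusted p up to 0.124, among them DESeq2 and leaving out any 1 WT library.

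Foxo1 rose by 0.89 ± 0.091 and the kinase Wnk1, a regulator of sodium-chloride cotransport, by 0.97 ± 0.105 in D647V-tetra. The log2 response in WT of set 2 was 0.21 for Foxo1 (adjusted p 0.601) and -0.07 for Wnk1 (adjusted p 0.907). The response in D647V-tetra exceeded that of WT by 0.69 ± 0.143 for Foxo1 (adjusted p 0.0136) and by 1.04 ± 0.165 for Wnk1 (adjusted p 0.00365), while the difference for Sgk1 was -1.81. The Foxo1 difference was not called without WT EtOH replicate 2 (adjusted p 0.14) or WT Dex replicate 2 (0.12). These are responses, and levels in EtOH differed as well. In EtOH, 7 of 17 substrates and effectors were lower and 2 higher in D647V-tetra than in WT (9.34% and 9.35% of all genes). With Dex 3 were lower and 5 higher (6.85% and 5.55%). Relative to D647V, 4 were lower and 1 higher in EtOH (4% and 0.53% of all genes), and 1 was higher with Dex (0.895%). Of the related AGC kinases, Rps6ka3 (RSK2) rose in D647V-tetra by 0.38 ± 0.093 (adjusted p 0.0563 without its EtOH replicate 3), and none of the 8 tested was called in the other 5 lines. The Rps6ka3 response in D647V-tetra was not called different from that of WT (adjusted p 0.0629, but called with DESeq2) or of D647V (0.364). Of the turnover factors and of the channels and transporters, none of the 4 and none of the 6 or 7 tested passed the test in any line.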

How the data were processed

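Total RNA was sequenced as 100 bp read pairs after rRNA removal. The labels describe 2 kit batches without assigning libraries to them, and all 16 headers of set 2 carry the word "resent". Per the submitters' processing notes, reads were handled with bcl2fastq 2.17, cutadapt, STAR and featureCounts on mm10. Per the file headers, the authors deposited raw read counts per gene name from featureCounts 2.0.3 with strand option 2 and GENCODE vM21, and both mates of a pair were counted. No exon of the 3 genes overlaps another annotated gene. Drosophila S2 cells were added to each sample at 5%, per the labels, and no scaling by them was used here.

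CPM values use TMM-normalized library sizes, and RPKM uses the deposited exon lengths. Each set was fitted with edgeR 4.0.16 in R 4.3.3 (filterByExpr, TMM, quasi-likelihood F test, a mean per group). The set 1 fit held 18 libraries and 16140 genes with 12 residual degrees of freedom, and the set 2 fit 16 libraries and 17535 genes with 10. Two-sided p-values were adjusted by Benjamini-Hochberg across every gene tested in the contrast, and a gene was called, or said to rise or fall, at an adjusted p below 0.05. SE is the log2 change divided by the square root of F. In all, 26 contrasts were tested. The code was tested on simulated data. Alternatives included DESeq2 1.42.0.

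The members and gene lists were chosen with earlier results of these data known. Named genes are the members, up to 4 called genes of each list with the lowest adjusted p in a Dex response, the 5 genes closest in pattern to Sgk1 and to Sgk3 (average log2 CPM of at least 1, prior count 2), and Nr3c1, Per1, Tsc22d3 and Fkbp5. The replicates' origin in separate cultures is not stated, so p-values measure the spread between these samples, which may be technical.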

Additional observations from a re-analysis of the deposited data

Results flagged for a closer look

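The Dex response of Sgk1 differed between lines by a direct test in all 6 comparisons within sets (edgeR's quasi-likelihood test on the difference of responses). The log2 differences were -0.52 for Y551A minus WT, -1.77 for Y551A-Dim minus WT and -1.25 for Y551A-Dim minus Y551A. They were -0.88 for D647V minus WT, -1.81 for D647V-tetra minus WT and -0.93 for D647V-tetra minus D647V. Every Dex library of the line with the smaller response lay below every Dex library of the other line. Outlying single libraries could not be sought, since no group holds more than 3.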

How the results depend on the processing

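Over 26 comparisons, alternatives gave 634 values for Sgk1, 606 for Sgk2 and 634 for Sgk3. Of these 616, 606 and 627 kept their side of the threshold, and none that was called under either setting changed direction. DESeq2 gave no adjusted p for 15 Sgk2 values. The difference of Sgk1 between D647V-tetra and D647V in EtOH was no longer called with relative log expression (RLE) scaling (-0.154), total-count scaling (-0.165), no low-count filter (-0.162), the replicate block (-0.163) or a fit of the compared groups alone (-0.155). Without single libraries it ranged from -0.183 to -0.131. That of Sgk1 between D647V and WT in EtOH became called with a filter of at least 1 CPM (-0.160), DESeq2 (-0.158) and all 34 libraries in one fit (-0.148). The WT difference between sets for Sgk1 became called without a low-count filter (0.221). For Sgk3 with Dex, D647V-tetra against WT was lost in a fit of the compared groups alone (0.2185). Leaving out single libraries gave 0.179 to 0.282 for that difference, 0.181 to 0.286 for D647V against WT with Dex, and -0.160 to -0.0638 for Y551A-Dim against Y551A in EtOH, which became called without Y551A-Dim EtOH replicate 2. The cause of these changes was not tested. The Dex responses of Sgk1 stayed called throughout, with ranges of 2.41 to 2.43 and 2.59 to 2.70 in WT of set 1 and set 2, 1.88 to 1.91 in Y551A, 0.62 to 0.68 in Y551A-Dim, 1.74 to 1.79 in D647V and 0.81 to 0.86 in D647V-tetra. Total-count scaling moved group CPM levels by -2.29% to 1.4% (Sgk1 in WT of set 1 with Dex to 794.1 CPM, past its SD).

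Counts of listed SGK partners called became 1 in Y551A-Dim in a fit of the compared groups alone and 5 in D647V without a filter. Without single libraries they were 1 to 3 in Y551A-Dim and 4 to 9 in WT of both sets. Counts over all genes moved by more than 1.5 times in these cases, with the range over settings other than single libraries left out. Dex responses had 549 (454 to 864) in WT of set 1, 176 (46 to 491) in Y551A-Dim, 302 (217 to 583) in WT of set 2, 165 (145 to 380) in D647V and 843 in WT of both sets, which the replicate block lowered by more than 1.5 times. Response differences had 29 (20 to 109) in Y551A, 238 (211 to 422) in Y551A-Dim, 90 (69 to 250) between these, 33 (27 to 244) in D647V, 774 (431 to 2624) in D647V-tetra, 153 (76 to 936) between these and 3 (3 to 156) between sets. EtOH differences had 1290 (761 to 1917) in D647V, 3277 (1876 to 4163) in D647V-tetra and 795 (235 to 1956) between these, and Dex differences 1651 (1062 to 2623) in D647V and 328 (210 to 716) between the mutants of set 2. In D647V-tetra the Dex response count of 3367 ranged from 1344 to 4023 without single libraries.

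Libraries of the same replicate number had correlated deviations of -0.646 to 0.0848 over 17 pairs, so the numbers were not taken to pair the samples. The replicate block ended no call of a member but that of Sgk1 in EtOH between D647V-tetra and D647V (adjusted p 0.0772). In WT of set 2 fitted alone, 217 genes were called without the block, 129 with the numbers as labelled and 954 with the numbers crossed between treatments, a fit added after seeing the data. Alternatives for the genes named beside the members were also added then.

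Limits: Sgk2 rests on at most 26 reads a library. WT of set 2 has 2 libraries per treatment, and where 1 was left out the other was assumed to vary like the other groups.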
